A study of Mus musculus with 15 samples.

Results

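The genes described here are 10 mouse transcription factors that mark the primitive streak, namely T, Eomes, Mixl1, Evx1, Gsc, Lhx1, Nkx1-2, Mesp1, Mesp2 and Sp5. They were chosen by name, as the rows of a gene count table that carry these symbols, and all 10 were found among 24034 gene rows. All 10 were also among the 13662 genes with enough counts for testing. The primitive streak is the site in the early embryo where epiblast cells turn into mesoderm and endoderm. Nodal, Wnt and FGF signals switch these factors on there, and most of them are switched off again as the new mesoderm moves away and takes on a fate such as blood vessel or blood. In embryonic stem cell cultures the same sequence is followed, with T and Mixl1 as common markers of streak-like cells and Mesp1 of cells that are leaving that state.

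RNA sequencing was done on 15 libraries of differentiated mouse embryonic stem cells, 3 for each of 5 sorted groups, in a study of reporter lines that carry regulatory sequences of Endoglin (Eng), whose product helps TGF-beta ligands signal at the surface of vessel and blood precursors. The reporter is LacZ, which encodes beta-galactosidase, and FDG is a substrate that fluoresces when this enzyme cuts it. The groups labelled HEI, which the study design describes as TIE2+, c-KIT+ and CD41- haemogenic endothelium, came from cells with the Eng promoter and its -8 kb enhancer and split by ENG, the Endoglin protein, and FDG into ENG+FDG+ cells, ENG-FDG+ cells and, as the last fraction, ENG+FDG- cells. The groups labelled FLK1+ (the VEGF receptor encoded by Kdr) came from cells with the promoter and enhancers at -8, +7 and +9 kb and were sorted as LacZ+ and LacZ- cells. Every group thus carried a reporter with the promoter and the -8 kb enhancer, no line without a reporter was profiled here, and HEI and FLK1+ cells differ in construct as well as in sort, so these cannot be told apart. The sources used here do not give the gates, culture days or number of clones. The labels name no separate cultures, so p-values measure only the spread between these libraries, which may be technical.

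Library totals ran from 9673396 to 16337785 counts. The replicate 1 library of each group stood apart, with 12188618 or more counts against at most 11747575 in the others, and with 1.40% to 3.56% of its counts on the ribosomal RNA gene Rn45s against 0.524% to 0.784%. The sort labels were checked on 4 genes. Kdr was at 319 to 715 CPM (counts scaled to a common library size) in the 6 FLK1+ libraries and at 404 to 1036 CPM in the 9 HEI libraries, and these ranges overlapped. Eng averaged 424 ± 416 CPM in ENG+FDG+, 81.8 ± 68.5 in ENG-FDG+ and 454 ± 440 in ENG+FDG- libraries (SD, n = 3 each), and its large SD came from replicate 1. The endothelial cadherin gene Cdh5 was at 839 to 2838 CPM in HEI libraries, against 10.4 to 123 in FLK1+ libraries. Runx1, which blood-forming endothelium needs, was at 234 to 302 CPM in ENG-FDG+ libraries and at 18.7 to 55.9 in the other HEI libraries.

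Of the 10 genes, placed on mm10 (GRCm38), only Mesp1 and Mesp2 lie near each other, 16938 bp apart on chromosome 7 in head-to-head orientation. Upstream sequence is shown for 4 of them because Wnt signals act through TCF/LEF proteins, whose DNA motif CTTTGA was searched on both strands. In the 250 bases before the RefSeq start, the motif occurred in 3 of the 9 genes with a window (T, Mesp1 and Sp5), against 13.8% of 32851 windows of all genes. The T-box motif TCACACC was in 0 of 9 windows (3.33% of all) and the FOXH1 motif AATNCACA in 0 of 9 (3.18% of all). The windows are from RefSeq, build GRCm38.p6, written 5′ to 3′ on the gene's strand, at chr17:8434173-8434422 (plus strand) for T, chr7:79793591-79793840 (minus) for Mesp1, chr2:70474673-70474922 (plus) for Sp5 and chr7:132599638-132599887 (minus) for Nkx1-2. Capitals mark CTTTGA or its reverse complement TCAAAG. Nkx1-2, which behaved unlike the other genes below, has none, but neither do Mesp2, Eomes, Evx1, Lhx1 and Gsc, whose windows are not shown. A match or its absence says nothing about binding.
T: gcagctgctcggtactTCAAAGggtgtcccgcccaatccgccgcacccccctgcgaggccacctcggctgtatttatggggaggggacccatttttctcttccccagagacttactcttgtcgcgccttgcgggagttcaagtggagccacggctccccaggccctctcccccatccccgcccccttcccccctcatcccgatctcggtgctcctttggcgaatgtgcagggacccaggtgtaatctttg
Mesp1: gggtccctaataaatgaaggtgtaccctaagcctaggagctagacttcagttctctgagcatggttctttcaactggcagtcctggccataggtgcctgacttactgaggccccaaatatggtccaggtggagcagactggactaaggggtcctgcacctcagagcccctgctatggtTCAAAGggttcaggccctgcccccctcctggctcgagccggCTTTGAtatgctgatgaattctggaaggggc
Sp5: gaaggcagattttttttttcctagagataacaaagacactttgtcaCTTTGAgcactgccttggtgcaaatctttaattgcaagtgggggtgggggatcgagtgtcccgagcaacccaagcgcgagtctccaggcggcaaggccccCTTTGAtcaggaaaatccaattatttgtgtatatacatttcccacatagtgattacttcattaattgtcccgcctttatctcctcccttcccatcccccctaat
Nkx1-2: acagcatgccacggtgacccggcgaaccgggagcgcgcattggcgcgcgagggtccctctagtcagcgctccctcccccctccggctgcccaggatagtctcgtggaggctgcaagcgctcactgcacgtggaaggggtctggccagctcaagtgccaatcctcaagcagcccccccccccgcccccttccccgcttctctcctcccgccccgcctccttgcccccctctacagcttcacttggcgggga

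All 10 factors were transcribed in FLK1+ cells, and in 9 of them every HEI library lay below every FLK1+ library. Summed over the 10 genes, the libraries held 7.14 to 7.75 CPM in ENG+FDG+, 14.6 to 34.7 in ENG-FDG+ and 6.23 to 11.4 in ENG+FDG- cells, against 560 to 1337 in LacZ+ and 859 to 2173 in LacZ- FLK1+ cells. Mixl1 alone made up 44.4% or more of this sum in each FLK1+ library. In ENG-FDG+ cells much of it was Nkx1-2, with 31.0 of 34.7 CPM in replicate 1, 6.54 of 18.4 in replicate 2 and 8.43 of 14.6 in replicate 3. In bulk RNA, fewer cells that transcribe a gene and less RNA per cell cannot be told apart.

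**Figure D1:**
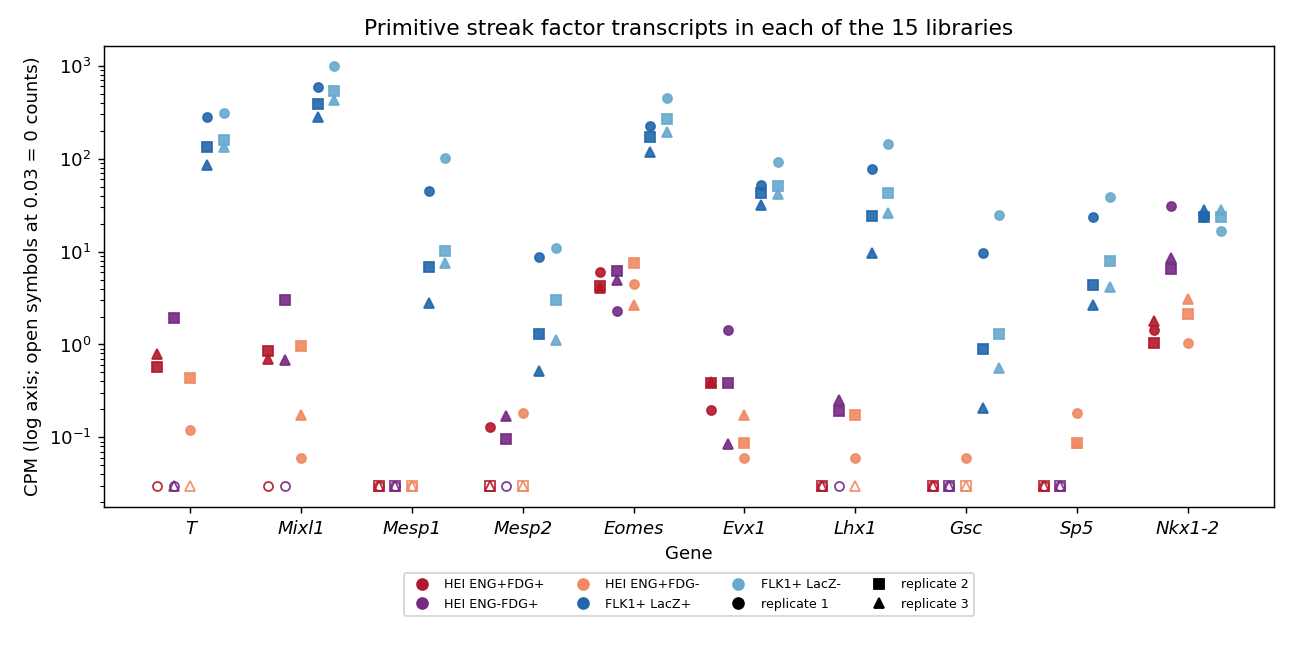
Level of each of the 10 genes in each of the 15 libraries, in CPM on a log axis, with colour for the sorted group, symbol shape for the replicate and open symbols for 0 counts. All HEI libraries lie below all FLK1+ libraries for 9 genes, and Nkx1-2 overlaps through ENG-FDG+ replicate 1 at 31.0 CPM.

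Per kilobase of exon, the order of the genes could be read at the top only. Mixl1, a paired-type homeobox factor, led with 183 ± 69.7 CPM per kb in LacZ+ and 281 ± 129 in LacZ- cells (SD, n = 3 each), and its lowest library was above the highest library of the next gene in both groups. T (Brachyury), the founding T-box factor, followed at 71.3 ± 43.3 in LacZ+ and 86.9 ± 41.5 CPM per kb in LacZ- cells, with overlap with the T-box factor Eomes at 41.4 ± 12.7 in LacZ+ and 73.0 ± 32.1 in LacZ- cells. The other 7 genes averaged 1.81 to 14.7 CPM per kb in LacZ+ and 2.60 to 31.4 in LacZ- cells, and none of them stood above the next one down without overlap. Mesp2, the paralog of Mesp1 best known from somite boundaries, was lowest in both groups.

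In FLK1+ cells the active reporter went with lower values of 9 of the 10 genes in every numbered pair of libraries, but none of these differences passed the test. For Mixl1 the values of replicates 1, 2 and 3 were 594, 384 and 280 CPM in LacZ+ cells, against 980, 529 and 422 in LacZ- cells. LacZ+ was lower within each pair, and the groups overlapped, with replicate 1 high in both. T gave 278, 133 and 85.2 CPM in LacZ+ cells, against 311, 159 and 133 in LacZ- cells. Eomes, which acts upstream of Mesp1 in cardiac mesoderm and is needed for definitive endoderm, gave 225, 173 and 119 CPM in LacZ+ cells, against 452, 264 and 194 in LacZ- cells. Here too each LacZ+ library was the lower of its pair and the groups overlapped.

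The homeobox factor Evx1, a marker of the posterior streak, had 52.4, 42.3 and 31.8 CPM in LacZ+ cells, against 92.4, 50.9 and 41.4 in LacZ- cells. Lhx1, a LIM homeobox factor of the anterior streak and later of kidney mesoderm, had 77.8, 24.1 and 9.75 CPM in LacZ+ cells, against 145, 42.2 and 26.2 in LacZ- cells. Gsc, the homeobox factor of the organizer, had 9.71, 0.900 and 0.205 CPM in LacZ+ cells, against 24.5, 1.29 and 0.556 in LacZ- cells. All 3 were lower in LacZ+ in each pair, and for Gsc replicates 2 and 3 rested on 2 to 14 counts a library.

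Mesp1, a basic helix-loop-helix factor of the first migrating mesoderm, had 45.0, 6.90 and 2.77 CPM in LacZ+ cells, against 102, 10.2 and 7.51 in LacZ- cells. Mesp2 had 8.75, 1.30 and 0.513 CPM in LacZ+ cells, against 11.01, 3.05 and 1.11 in LacZ- cells. Sp5, a zinc finger factor that is a direct Wnt target, had 23.5, 4.4 and 2.67 CPM in LacZ+ cells, against 38.6, 7.94 and 4.17 in LacZ- cells. In these 3 genes replicate 1 lay far above the other replicates in both groups. Nkx1-2, a homeobox factor of the caudal epiblast beside the streak, was the exception, with 23.8, 23.4 and 28.0 CPM in LacZ+ cells, against 16.8, 23.6 and 28.3 in LacZ- cells.

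**Figure D2:**
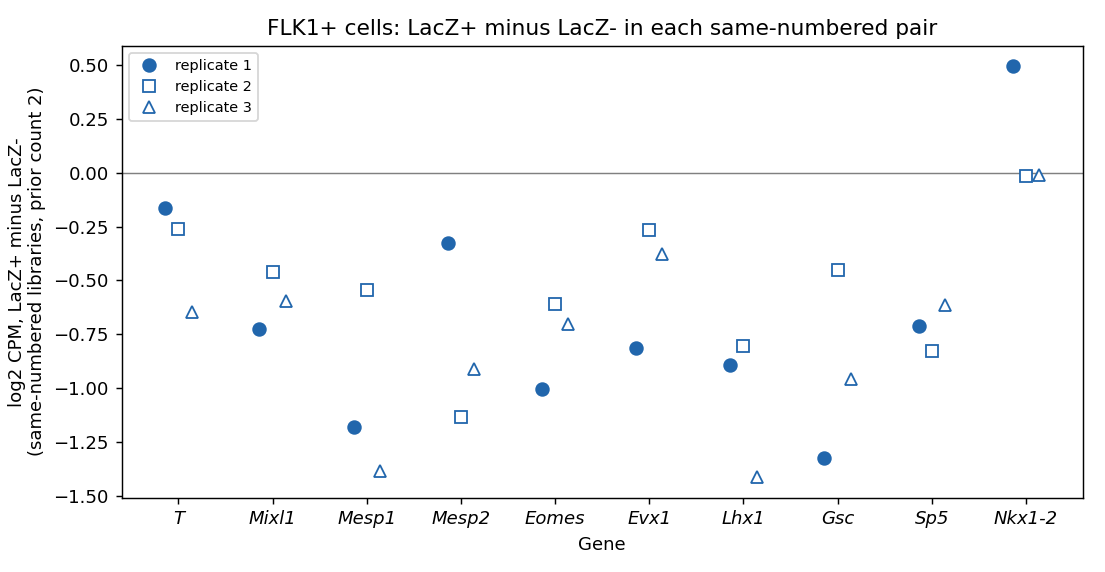
Difference in log2 CPM between LacZ+ and LacZ- FLK1+ libraries with the same replicate number, for each of the 10 genes (prior count 2). All 3 points lie below 0 for 9 genes, and for Nkx1-2 the points lie at 0.49, -0.01 and -0.01.

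Within pairs, the log2 difference of LacZ+ minus LacZ- ran from -0.72 to -0.46 for Mixl1, from -1.01 to -0.61 for Eomes and from -1.41 to -0.80 for Lhx1. Of all 13662 genes, 12.3% were likewise lower in LacZ+ in 3 of 3 pairs, against 9 of these 10. Groups that did not overlap were found for 0 of the 10 genes and for 4.01% of all genes. With edgeR's quasi-likelihood test and Benjamini-Hochberg adjustment, 0 of the 10 genes passed an adjusted p of 0.05, as did 0% of the 13662 genes. At an unadjusted p under 0.05 the counts were 0 of the 10 genes and 170 of all genes. The fitted log2 difference with the smallest unadjusted p was that of Eomes, -0.82 ± 0.44 (SE), with an adjusted p of 1 in edgeR. In the fit without the replicate block, LacZ- replicate 1 alone was left out, which keeps its high LacZ+ partner. The log2 difference then turned positive for 6 genes, at 0.18 for T, 1.05 for Mesp1, 0.77 for Mesp2, 0.12 for Lhx1, 1.97 for Gsc and 0.76 for Sp5. That of Nkx1-2 turned from 0.13 to -0.053. With both replicate 1 libraries left out the difference was negative for the 5 of those 6 genes that could be fitted, at -0.43 for T, -0.87 for Mesp1, -1.19 for Mesp2, -1.02 for Lhx1 and -0.78 for Sp5. With the replicate number as a block, again 0 of the 10 genes and 0 of all genes passed, and with DESeq2 0 of the 10 and 8 of all genes (0.0586%).

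Markers of other cells had these values in the same fractions. The sum of 12 endothelial genes was 533, 145 and 177 CPM in LacZ+ replicates 1, 2 and 3, against 150, 96.6 and 99.9 in LacZ- replicates, with Egfl7 as its most abundant gene and none at 0. The sum of 12 pluripotency genes was 1272, 598 and 428 CPM in LacZ+ cells, against 962, 824 and 614 in LacZ- cells, so that LacZ+ was higher in replicate 1 and lower in replicates 2 and 3. That list includes Tdgf1, the Nodal co-receptor, which averaged 245 ± 83.8 CPM in LacZ+ and 470 ± 129 in LacZ- cells (SD, n = 3 each). The part of these cells in the lower values of the streak factors was not tested.

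The FLK1+ replicates differed widely from each other, with replicate 1 highest in both fractions for 9 of the 10 genes. The share of all genes with this pattern was not counted, so it is not shown to be particular to these factors. Over all genes and groups, too, the biological coefficient of variation (a measure of spread between libraries) was 0.477, against 0.0761 in replicates 2 and 3 alone. Replicate 1 exceeded the mean of replicates 2 and 3 by 17.6-fold in LacZ+ and 26.6-fold in LacZ- cells for Gsc. For Mesp1 the ratios were 9.31 in LacZ+ and 11.6 in LacZ- cells, and for Sp5 6.65 in LacZ+ and 6.37 in LacZ- cells. Mesp2 gave 9.65 in LacZ+ and 5.29 in LacZ- cells, and Lhx1 4.596 in LacZ+ and 4.23 in LacZ- cells. The ratios were smaller for Mixl1, at 1.79 in LacZ+ and 2.06 in LacZ- cells, for T at 2.55 in LacZ+ and 2.13 in LacZ- cells, for Eomes at 1.54 in LacZ+ and 1.97 in LacZ- cells and for Evx1 at 1.41 in LacZ+ and 2.001 in LacZ- cells. Nkx1-2 was the one gene with lower values in replicate 1, at 0.924 in LacZ+ and 0.649 in LacZ- cells.

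**Figure D3:**
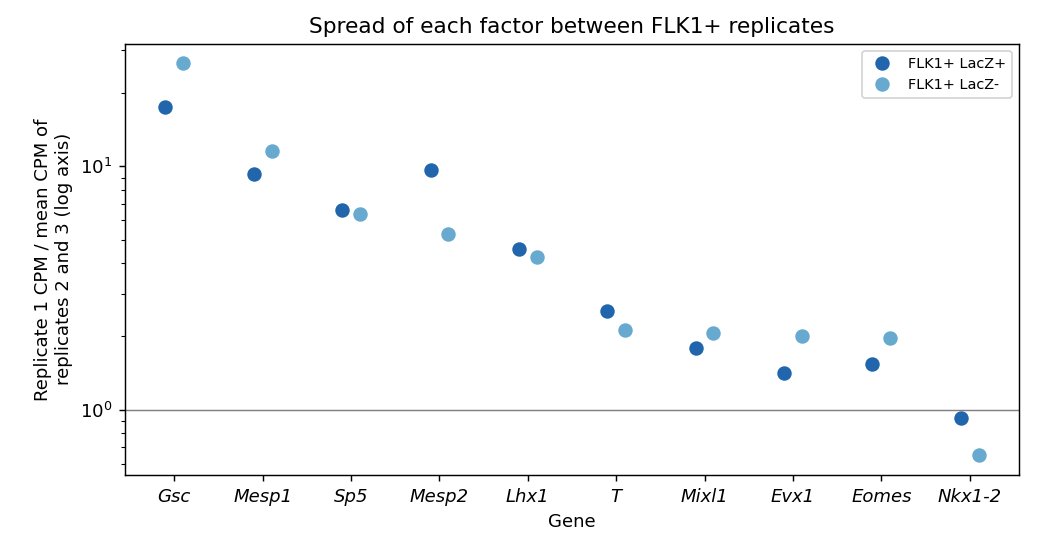
Ratio of the replicate 1 level to the mean of replicates 2 and 3 in LacZ+ and LacZ- FLK1+ cells, for each gene, on a log axis with a line at 1. Gsc is highest at 17.6 in LacZ+ and 26.6 in LacZ- cells, and Nkx1-2 lies below 1 in both.

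HEI libraries held few transcripts of most of these factors. Mesp1 had 0 counts in all 9 HEI libraries, against 27 to 1460 counts in the 6 FLK1+ libraries, and was therefore at least 1252-fold lower (floor of 3 counts over all HEI libraries together). Gsc had 1 count in all HEI libraries together, against 533 in FLK1+ libraries, a ratio of 817 with a 95% interval of 146 to 32319. Sp5 had 5 counts, in ENG+FDG- replicates 1, 2 and 3 with 3, 1 and 1, against 1119 counts in FLK1+ libraries, and was 343-fold lower (147 to 1058). These intervals, and those below, are exact and cover counting error only. A count of 0 in a HEI library allows up to 3 counts, which is 0.182 to 0.298 CPM.

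T had 41 counts over the 9 HEI libraries, against 14098 in FLK1+ libraries, and was 527-fold lower (388 to 735). Its ENG-FDG+ replicate 2 library alone held 20 of them. Mixl1 had 69 counts in HEI, against 40126 in FLK1+ libraries, and was 891-fold lower (704 to 1146), with 31 of the 69 in that same library. Lhx1 had 8 counts in HEI, against 4357 in FLK1+ libraries, and was 835-fold lower (423 to 1934). All 9 HEI libraries lay below all 6 FLK1+ libraries for each of the 3.

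Evx1 was still counted in each HEI library, with 37 counts in all, against 3871 in FLK1+ libraries, and was 160-fold lower (116 to 228). Mesp2 had 8 counts, against 357 in FLK1+ libraries, and was 68.4-fold lower (34.3 to 160). Eomes kept a low, even level. It had 2.29 to 7.49 CPM in the 9 HEI libraries, from 27 to 92 counts each, against 119 to 452 CPM in the 6 FLK1+ libraries, and was 52.7-fold lower (48.3 to 57.6). Nkx1-2 fell least, with 660 counts in HEI against 1680 in FLK1+ libraries, 3.90-fold lower (3.56 to 4.27), and its groups overlapped.

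**Figure D4:**
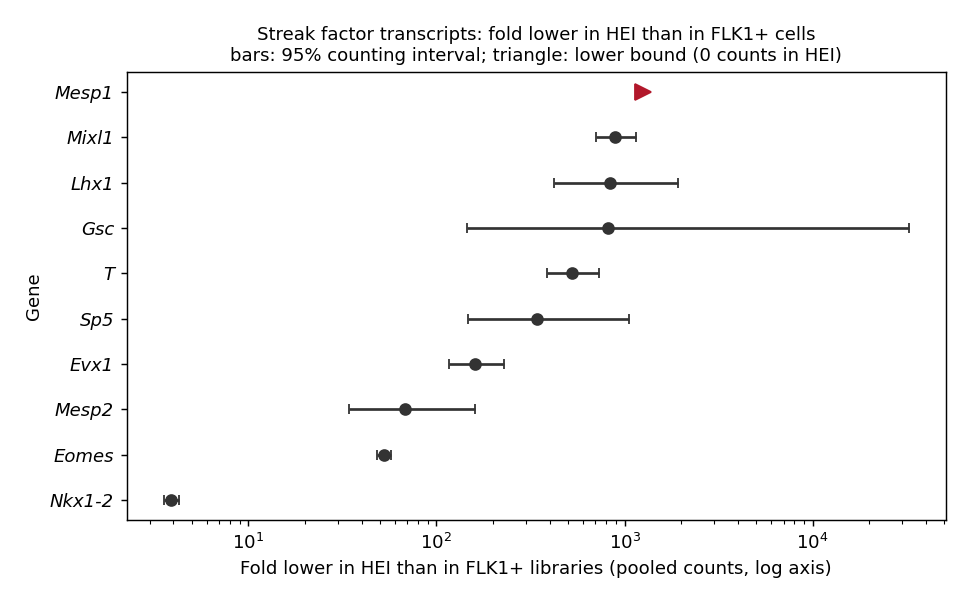
Fold by which each gene was lower in the 9 HEI libraries than in the 6 FLK1+ libraries, from pooled counts over scaled library sizes on a log axis, with 95% counting intervals and a triangle for the lower bound of Mesp1. Values run from 3.90 for Nkx1-2 through 52.7 for Eomes to at least 1252 for Mesp1.

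All 10 genes passed the test that set the average of the HEI groups against that of the FLK1+ groups (edgeR's quasi-likelihood test, adjusted p from 8.3e-08 for Eomes to 0.0022 for Gsc). Of all 13662 genes 37.3% passed, 20.3% as lower in HEI. In 9 of the 10 every HEI library was below every FLK1+ library, as in 9.57% of all genes. However, 7 of the 10 genes had enough counts for testing only through the FLK1+ libraries and so had to differ, which makes these counts a description. In the test for any difference among the 5 groups 10 of the 10 passed, against 23.2% of all genes, and Gsc missed the threshold in a fit that left out 1 library (adjusted p up to 0.077 in edgeR). Mixl1, Eomes and Nkx1-2 had enough counts in the HEI libraries alone, with fitted log2 differences of -9.73 ± 0.79, -5.59 ± 0.32 and -2.74 ± 0.35 (SE). The median of all genes was -0.11 on the same scale.

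In replicates 2 and 3 alone most folds were smaller. For Mixl1 the pooled level was then 1.04 CPM in HEI, against 407 in FLK1+ libraries, while all replicates gave 0.632 in HEI, against 563 in FLK1+ libraries. The folds were 216 for T, 393 for Mixl1, 244 for Lhx1, 159 for Sp5, 33.3 for Mesp2 and 38.2 for Eomes, and at least 152 for Mesp1 and at least 16.4 for Gsc. Evx1 was 172-fold lower (105 to 301) and Nkx1-2 6.62-fold lower (5.77 to 7.61) in HEI. HEI and FLK1+ cells also differed in their cell type markers, the 12 endothelial genes summing to 2312 to 6326 CPM in HEI libraries, against 96.6 to 533 in FLK1+ libraries. Pluripotency markers summed to 150 to 724 CPM in HEI, against 428 to 1272 in FLK1+ libraries, but different genes led these sums. The most abundant were Klf2 and Klf4 in ENG+FDG+ and ENG+FDG- cells, Dnmt3b and Klf2 in ENG-FDG+ cells, and Dnmt3b and Tdgf1 in both FLK1+ groups. Pou5f1, Sox2 and Utf1 were at 0 counts in ENG+FDG+, Nanog and Utf1 in ENG-FDG+ and Pou5f1 and Sox2 in ENG+FDG- cells. The part of construct, culture time and cell type in the difference cannot be told apart.

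The signals that act on the streak fell together with the factors. Of 23 listed ligands, receptors, inhibitors and effectors of the Nodal, Wnt, FGF and BMP pathways, 19 were tested. Between HEI and FLK1+ cells 16 were lower and 0 higher by the edgeR test, where 20.3% of all genes were lower, with a median log2 difference of -3.87 against -0.11 for all genes. Of the 12 with enough counts in HEI libraries alone, 9 were lower. Fgf8, needed for cells to leave the streak, had 0 counts in HEI and 1156 in FLK1+ libraries and was at least 590-fold lower. It averaged 12.7 ± 20.7 CPM in LacZ+ and 13.6 ± 20.1 in LacZ- cells (SD, n = 3 each), with 573 counts in its highest library. The SD is above the mean in both groups, so this bound rests on few libraries. The Nodal inhibitor Lefty2 averaged 0, 0.0605 and 0 CPM in ENG+FDG+, ENG-FDG+ and ENG+FDG- cells, against 16.3 ± 20.2 in LacZ+ and 17.3 ± 12.2 in LacZ- cells (SD, n = 3 each). Tdgf1 averaged 0.520, 1.12 and 0.263 CPM in the same HEI groups, against 245 and 470 CPM in LacZ+ and LacZ- cells. Fgf4 averaged 0, 0.121 and 0 CPM in those HEI groups, against 4.63 CPM in LacZ+ and 2.13 in LacZ- cells. Fgfr1, Rspo3 and Tcf7l1 did not pass the test, though with the replicate block Fgfr1 passed as higher in HEI (log2 0.26, adjusted p = 0.0085 in edgeR). Between LacZ+ and LacZ- cells no gene of this list or of the lists below passed.

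Other genes of the streak and of newly formed mesoderm behaved alike, with 16 of 21 tested lower and 0 higher in HEI, against 20.3% lower of all genes (median log2 -3.22). Of the 15 with enough counts in HEI alone, 10 were lower. By fitted difference the first were the posterior caudal factor Cdx4 (-8.86 ± 0.85), the presomitic factor Msgn1 (-8.34 ± 0.60), Hoxb1 (-8.02 ± 0.84) and the Notch ligand Dll3 (-7.19 ± 0.83, SE). Each of them averaged 0.173 CPM or less in every HEI group. They had enough counts for testing only through the FLK1+ libraries and so had to be lower. Foxc1, Foxc2, Gata4, Aplnr and Lmo2 did not pass. With the replicate block Lmo2 passed as lower in HEI (log2 -0.59, adjusted p = 0.00015 in edgeR) and the others again did not. Of 9 tested genes of the anterior streak, node and definitive endoderm, a list that includes Gsc and Lhx1, 7 were lower, against 20.3% of all genes, and 1 was higher, with a median of -6.76, or -5.88 with Cer1, at 0 in HEI, put at its bound. Of the 2 with enough counts in HEI alone, 0 were lower and 1 was higher, so the 7 lower genes were tested only through the FLK1+ libraries. The first after Lhx1 were Otx2 (-8.72 ± 0.83, SE) and Gsc. The Nodal, BMP and Wnt inhibitor gene Cer1 had 115 counts in FLK1+ libraries and was at least 58.7-fold lower in HEI. Sox17 was the one higher, at 74.8 ± 17.2, 25.5 ± 11.3 and 77.5 ± 25.9 CPM in ENG+FDG+, ENG-FDG+ and ENG+FDG- cells, against 6.97 ± 2.84 in LacZ+ and 4.32 ± 1.67 in LacZ- cells (SD, n = 3 each), and it is also used by arterial endothelium.

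Among the HEI fractions Nkx1-2 was the one streak factor to pass edgeR's test without the replicate block, and it was high in the cells without surface ENG. Only Mixl1, Eomes and Nkx1-2 had enough counts in the HEI libraries alone, so the other genes could hardly be compared there. Its values in replicates 1, 2 and 3 were 1.43, 1.05 and 1.79 CPM in ENG+FDG+ cells, against 31.0, 6.54 and 8.43 in ENG-FDG+ cells. The 3 ENG-FDG+ libraries were all above the 3 ENG+FDG+ libraries, and replicate 1 was far above the other two. The log2 difference was -3.42 ± 0.60 (SE) and passed edgeR's quasi-likelihood test with an adjusted p of 0.044, as did 0.278% of all genes, while 14.4% of all genes had groups that did not overlap. With the replicate block it was -3.39 ± 0.58 with an adjusted p of 0.0031 in edgeR, where 10.8% of all genes passed. In replicates 2 and 3 alone it was -2.34 ± 0.30 with an adjusted p of 8.1e-06 in edgeR, where 29.3% passed.

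The call of Nkx1-2 was close to the threshold. In edgeR it ended with no filter on low counts (adjusted p = 0.057) and in 10 of 15 fits that left out 1 library, with adjusted p of 0.067 to 0.194. Those libraries were replicates 2 and 3 of LacZ+, LacZ- and ENG+FDG-, all 3 of ENG+FDG+, and replicate 3 of ENG-FDG+. Without ENG-FDG+ replicate 1 the difference shrank to -2.38 ± 0.42 (SE, adjusted p = 0.0498 in edgeR). That library also stood apart in its mesenchymal markers. The sum of 10 smooth muscle and mesenchyme genes was 5174, 355 and 779 CPM in ENG-FDG+ replicates 1, 2 and 3, against 127 to 585 in ENG+FDG+ and 269 to 480 in ENG+FDG- libraries, led by Acta2 with none at 0. Neural and neuromesodermal markers, from tissues that also transcribe Nkx1-2, summed to 206 to 227 CPM in ENG+FDG+, 186 to 217 in ENG-FDG+ and 213 to 251 in ENG+FDG- libraries. Nes alone averaged 205, 181 and 215 CPM in these fractions, so the sums mostly give the level of Nes. Sox1, Neurog2 and Olig2 were at 0 in all HEI libraries. Sox2 was at 0 in ENG+FDG+ and ENG+FDG- cells but not in ENG-FDG+ cells. Other markers set all 3 ENG-FDG+ libraries apart. The sum of 12 early haematopoietic genes was 210 to 291 CPM in ENG+FDG+, 684 to 752 in ENG-FDG+ and 258 to 284 in ENG+FDG- libraries, with none at 0. The sum of 12 endothelial genes was 3960 to 5617 CPM in ENG+FDG+, 2312 to 2413 in ENG-FDG+ and 3766 to 6326 in ENG+FDG- libraries, with none at 0. The part of these cells in the Nkx1-2 level was not tested.

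Against ENG+FDG- cells, 0 of the 10 genes passed (edgeR), against 0.351% of all genes. At an unadjusted p under 0.05 in edgeR the counts were 2 of the 10 genes and 1309 of all genes (9.58%). Nkx1-2 had 31.0, 6.54 and 8.43 CPM in ENG-FDG+ cells, against 1.03, 2.12 and 3.12 in ENG+FDG- cells, and these groups did not overlap, as in 14.6% of all genes. Its log2 difference was 2.88 ± 0.58 (SE) with an adjusted p of 0.061 in edgeR. With the replicate block it was 2.85 ± 0.56 with an adjusted p of 0.0069, and in replicates 2 and 3 alone 1.48 ± 0.26 with an adjusted p of 0.00025, both in edgeR, where 11.1% and 27.1% of all genes passed. DESeq2 gave an adjusted p of 0.00012 for it, where 3.26% of all genes passed. Evx1 had 17, 4 and 1 counts in ENG-FDG+ replicates 1, 2 and 3, against 1, 1 and 2 in ENG+FDG- replicates, and the groups overlapped. Its log2 difference of 2.52 ± 0.85 had an adjusted p of 0.30 in edgeR and 0.049 with the replicate block, and it shrank to 1.05 ± 0.78 without ENG-FDG+ replicate 1 (adjusted p = 0.73 in edgeR). Sp5 had 0 counts in the ENG-FDG+ libraries, against 3, 1 and 1 in ENG+FDG- replicates 1, 2 and 3. These groups did not overlap, but the counts are too few for a comparison.

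Between ENG+FDG+ and ENG+FDG- cells, the comparison of active and silent reporter among ENG+ cells, 0 of the 10 genes and 0% of all genes passed in edgeR, with 0 of the 10 and 39 of all genes at an unadjusted p under 0.05. DESeq2 also called 0. Evx1 had 0.195, 0.381 and 0.397 CPM in ENG+FDG+ cells, against 0.0607, 0.0881 and 0.173 in ENG+FDG- cells, from 1 to 4 counts a library. These groups did not overlap, as in 3.41% of all genes, and the log2 difference was 1.52 ± 0.92 (SE, adjusted p = 1 in edgeR). Those of Sp5 did not overlap either, with 0 counts in the ENG+FDG+ libraries against 3, 1 and 1 in ENG+FDG- replicates 1, 2 and 3. Eomes averaged 4.78 ± 1.05 CPM in ENG+FDG+, 4.49 ± 2.02 in ENG-FDG+ and 4.89 ± 2.43 in ENG+FDG- cells (SD, n = 3 each), and all 3 groups overlapped. Its log2 difference was -0.03 ± 0.45 (SE) between ENG+FDG+ and ENG+FDG- cells and 0.10 ± 0.46 between ENG+FDG+ and ENG-FDG+ cells. Nkx1-2 averaged 1.42 ± 0.37 CPM in ENG+FDG+ and 2.09 ± 1.04 in ENG+FDG- cells (SD, n = 3 each), with overlap. Whether the reporter fractions differed more in HEI ENG+ cells than in FLK1+ cells was tested as an interaction, which 0 of the 10 genes and 0% of all genes passed in edgeR, with 0 and 97 at an unadjusted p under 0.05.

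**Figure D5:**
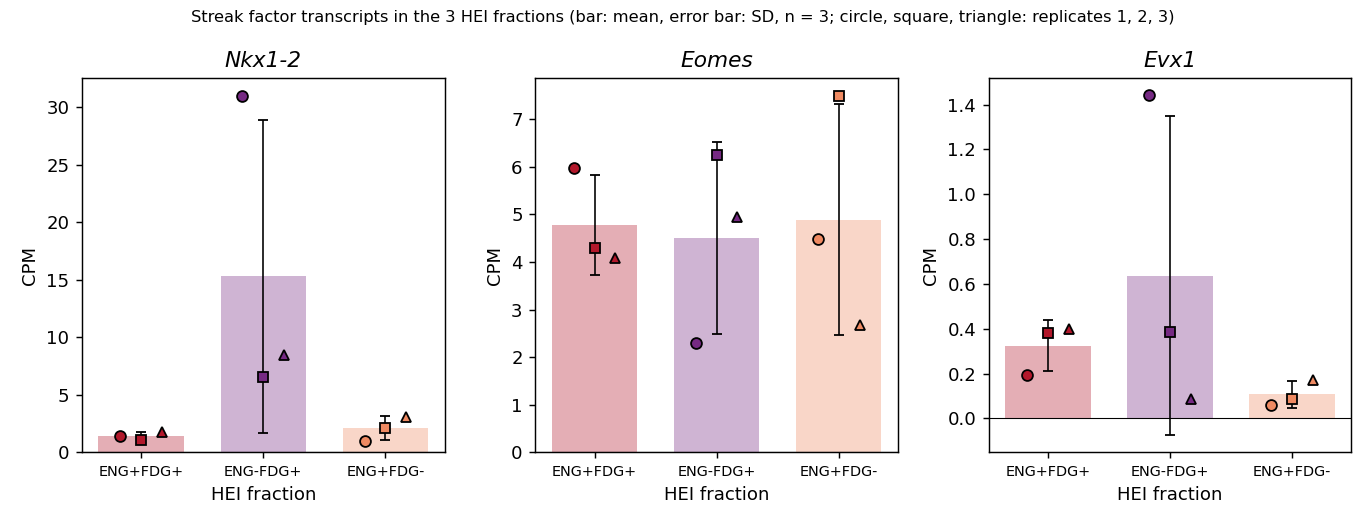
Levels of Nkx1-2, Eomes and Evx1 in the 3 HEI fractions in CPM, with bars for the mean, error bars for the SD (n = 3) and 1 symbol for each library. Nkx1-2 is high in all ENG-FDG+ libraries (6.54 to 31.0 CPM), Eomes is level across fractions, and the Evx1 mean in ENG-FDG+ rests on replicate 1 at 1.44 CPM.

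The order of the factors per kb of exon differed between the fractions. Eomes came first at 1.15 ± 0.25 CPM per kb in ENG+FDG+ cells and 1.18 ± 0.58 in ENG+FDG- cells, and in ENG+FDG+ cells it stood above Nkx1-2 without overlap. In ENG-FDG+ cells Nkx1-2 came first at 4.69 ± 4.16 CPM per kb and Eomes next at 1.08 ± 0.49 (SD, n = 3 each), without overlap. At 31.0 CPM, ENG-FDG+ replicate 1 lay above all 6 FLK1+ libraries (16.8 to 28.3 CPM), while ENG-FDG+ replicates 2 and 3 lay below them all. From pooled counts Nkx1-2 was 16.6-fold lower in ENG+FDG+ (12.6 to 22.4), 1.503-fold lower in ENG-FDG+ (1.36 to 1.66) and 12.1-fold lower in ENG+FDG- cells (9.59 to 15.3) than in FLK1+ cells. Replicate 1 held 365 of the 532 ENG-FDG+ counts. In replicates 2 and 3 alone, an alternative chosen after seeing the data, the folds were 18.3 in ENG+FDG+ (12.7 to 27.5), 3.42 in ENG-FDG+ (2.90 to 4.05) and 9.85 in ENG+FDG- cells (7.59 to 13.001).

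Few other streak genes passed within HEI without the replicate block. Of the signal list 1 of 19 passed between ENG+FDG+ and ENG-FDG+ cells, against 0.278% of all genes, the Wnt effector Tcf7, at 18.4 ± 0.99 CPM in ENG+FDG+ and 36.2 ± 0.51 in ENG-FDG+ cells (log2 -0.97 ± 0.18 SE, adjusted p = 0.044 in edgeR). Between ENG-FDG+ and ENG+FDG- cells, where 0.351% of all genes passed, 1 of 19 signal genes and 1 of 21 other streak genes passed. Fgf3 was higher, at 2.49 ± 2.07 CPM in ENG-FDG+ and 0.0289 ± 0.05 in ENG+FDG- cells (SD, n = 3 each), with a log2 difference of 6.10 ± 1.15 (SE) and an adjusted p of 0.045 in edgeR. Fst, the activin-binding protein, was lower, at 0.416 ± 0.140 CPM in ENG-FDG+ and 3.84 ± 1.28 in ENG+FDG- cells (log2 -3.19 ± 0.60 SE, adjusted p = 0.045 in edgeR). Each call ended in most fits that left out 1 library, 12 of 15 for Tcf7 (adjusted p up to 0.200) and 13 of 15 for both Fgf3 (up to 0.238) and Fst (up to 0.195). With the replicate block 5 of 19 signal genes were lower in ENG+FDG+ than in ENG-FDG+ cells, against 10.8% of all genes passing in either direction, namely Tcf7 (adjusted p = 0.00058 in edgeR), Rspo3 (0.00079), Wnt5a (0.018), Fgf3 (0.023) and Foxh1 (0.040). With the block the same 5 were higher in ENG-FDG+ than in ENG+FDG- cells, against 11.1% of all genes, and both comparisons use the ENG-FDG+ libraries. Replicates 2 and 3 alone gave calls in both directions. There 4 of the 19 were lower and 2 higher in ENG+FDG+ than in ENG-FDG+ cells, where 29.3% of all genes passed. In ENG-FDG+ against ENG+FDG- cells 4 were higher and 2 lower, where 27.1% passed. Of the 21 other streak genes, 4 passed with the block between ENG+FDG+ and ENG-FDG+ cells and 3 between ENG-FDG+ and ENG+FDG- cells. Sox17 passed in both with the block, higher in ENG+FDG+ than in ENG-FDG+ cells (log2 1.61) and lower in ENG-FDG+ than in ENG+FDG- cells (log2 -1.63).

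Some values are uncertain because genes overlap and the strand setting of the counting is not given. Nkx1-2 (chr7:132594878-132599637, minus strand, 2 exons) overlaps Fgfr2 on the same strand and an antisense gene in the GENCODE annotation. Fgfr2 had 1.17, 3.33 and 3.28 CPM in ENG+FDG+ replicates 1, 2 and 3, against 5.60, 2.98 and 4.17 in ENG-FDG+ replicates, and these groups overlapped, unlike those of Nkx1-2. In FLK1+ cells Fgfr2 was far higher, at 15.8, 73.0 and 119 CPM in LacZ+ and 24.6, 59.8 and 83.3 in LacZ- replicates 1, 2 and 3. It was thus lowest in replicate 1 of both, where Nkx1-2 was not highest either. Whether reads of Fgfr2 add to the Nkx1-2 counts, and so to its fold between HEI and FLK1+ cells, was not tested. Eomes (chr9:118478212-118486132, plus strand, 6 exons) and Evx1 (chr6:52313498-52318378, plus strand, 3 exons) each overlap an antisense gene that was not analysed here. Lhx1os, a noncoding gene that starts 125 bp from Lhx1 on the other strand, had 1 count in HEI and 379 in FLK1+ libraries.

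The genes most like each factor were found by Pearson r of log2 CPM over the 15 libraries, as a description. HEI and FLK1+ libraries lie apart for most of these genes, and no r within either is given. T was most like Tdgf1 (r = 0.99), Mixl1 and Arhgap36, and Mixl1 most like Tdgf1, Zcchc12 and T. Mesp1 was most like Tlx2, Sp5 and Lefty2, and Sp5 most like Mesp1, Fndc1 and Otx2. Lhx1 was most like Otx2, Lefty2 and Hpca, and Gsc most like Pacsin1, Fgf8 and Lmo1. Eomes was most like Dpysl5, Cfc1 and Wnt5b, Evx1 most like Olfm1, Bmp7 and Atp1b2, and Mesp2 most like Oas1a, Echdc2 and Mycl. Nkx1-2 was most like Sdc2, Notch2 and Rybp (r = 0.97 each). In the 10 libraries of replicates 2 and 3, 3 of the 10 factors had at least 1 of their 3 genes again.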

How the data were processed

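The authors deposited raw counts of reads for each gene symbol, with 1 column per library. Per the labels' protocols, RNA of the sorted fractions went through amplification with a Nugen kit before library construction. Per the submitters' processing notes, STAR 2.4.0, HTSeq 0.6.1 and the mm10 genome were used, and the role of each, the annotation, the strand setting and filters are left unstated there. Amplification can add noise to rare transcripts.

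Of 24061 lines, 27 with a date in place of a symbol were dropped. edgeR 4.0.16 (limma 3.58.1, R 4.3.3) fitted all 15 libraries in 1 robust quasi-likelihood model with 5 group means after filterByExpr (13662 genes) and TMM scaling. Adjusted p values are Benjamini-Hochberg over all genes tested, with a threshold of 0.05, and SE are those that give the test statistic. CPM use TMM-scaled sizes. Exon lengths and positions came from GENCODE M21 (GRCm38). Folds and exact intervals from pooled counts used SciPy 1.17.1. The fit was tested on simulated data.

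Replicate numbers 1 to 3 are shared by all groups. Deviations of same-numbered libraries from their group means correlated at 0.43 to 0.87 in all 30 group pairs, so the numbers were taken to pair libraries, a hint from the data and not a statement of the labels.

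The 10 factors, the gene and marker lists, the tests and the alternatives were chosen with earlier results of these data known. Named list genes are up to 4 past the threshold with the largest log2 difference, or others that did not pass, and Sox17, Foxc1, Foxc2, Gata4, Aplnr, Lmo2, Fgfr1, Rspo3, Tcf7l1, Wnt5a, Foxh1, Fgfr2 and Lhx1os were named after their values were seen. Alternatives were RLE factors, no filter, at least 5 CPM in 3 libraries, DESeq2 1.42.0, the replicate block, replicates 2 and 3 only, each library left out, replicate 1 alone, and the longest transcript as gene length.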

Additional observations from a re-analysis of the deposited data

How the results depend on the processing

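The fall of all 10 genes in HEI cells held in every alternative fit that could test them (RLE factors, both filters, DESeq2, the replicate block, each library left out). However, 7 of the 10 had enough counts for testing only through the FLK1+ libraries and so had to differ. For these the repeated calls are a description. Only Mixl1, Eomes and Nkx1-2 had enough counts in the HEI libraries alone. Gsc had too few counts in replicates 2 and 3 alone, and Gsc and Mesp2 under the 5 CPM filter. The fitted fold, taken out of log2, moved by over 1.5-fold without single libraries. The log2 difference was -10.9 for T (otherwise -8.94) and -10.32 for Mixl1 (otherwise -9.73) without ENG-FDG+ replicate 2. Without LacZ+ or LacZ- replicate 1 it was -10.36 or -10.24 for Mesp1 (otherwise -11.35), -4.75 or -5.10 for Mesp2 (otherwise -5.74), -7.14 or -6.88 for Gsc (otherwise -8.52), -8.29 or -8.32 for Sp5 (otherwise -9.08). For Mesp2 it was also -6.59 without ENG+FDG+ replicate 1 and -6.71 without ENG+FDG- replicate 1. Replicate 1 alone gave -12.01 for Mixl1 and -2.37 for Nkx1-2. The fold of Nkx1-2 in ENG-FDG+ cells moved to 3.42 in replicates 2 and 3, an alternative chosen after seeing the data (otherwise 1.503).

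Within HEI, the number of the 10 genes past the threshold between ENG+FDG+ and ENG-FDG+ cells was 1, 0 with no filter, and 0 to 1 with a library left out. Between ENG-FDG+ and ENG+FDG- cells it was 0, and 1 with DESeq2, 2 with the replicate block and 1 in replicates 2 and 3. The replicate block changed no other call of the 10 genes. The sign changed only for differences that had not passed the test. The LacZ+ difference turned positive for T without LacZ+ replicate 3 or LacZ- replicate 1, and for Mesp1, Mesp2, Lhx1, Gsc and Sp5 without LacZ- replicate 1. Ranges with a library left out were -0.88 to 0.18 for T, -3.05 to 1.05 for Mesp1, -2.47 to 0.77 for Mesp2, -2.07 to 0.12 for Lhx1, -3.97 to 1.97 for Gsc, -2.26 to 0.76 for Sp5 and -0.053 to 0.31 for Nkx1-2, which was -0.025 in replicates 2 and 3. For Eomes between ENG+FDG+ and ENG+FDG- cells the range was -0.32 to 0.41, with 0.013 under the replicate block and 0.40 in replicate 1 alone, where Nkx1-2 was 0.42. For Eomes between ENG+FDG+ and ENG-FDG+ cells it was -0.21 to 0.41, with -0.35 in replicates 2 and 3, and between ENG-FDG+ and ENG+FDG- cells -0.43 to 0.31, with 0.10 in replicates 2 and 3. The cause was not tested.

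Counts over all genes moved more. Between LacZ+ and LacZ- cells they were 0, and 8 with DESeq2 and 8 in replicates 2 and 3. Between ENG+FDG+ and ENG+FDG- cells they were 0, and 75 in replicates 2 and 3. Between ENG+FDG+ and ENG-FDG+ cells they were 38, and 12 with no filter, 65 with the 5 CPM filter, 441 with DESeq2, 1482 with the block, 3899 in replicates 2 and 3 and 0 to 61 with a library left out. Between ENG-FDG+ and ENG+FDG- cells they were 48, and 13, 445, 1515 and 3605 with no filter, DESeq2, block and replicates 2 and 3, and 0 to 62 with a library left out. Between HEI and FLK1+ cells they were 5096, and 9039 with the block and 9815 in replicates 2 and 3. For any difference among groups they were 3176, 7973 and 9672 in that order, and for the interaction 0 and 4 in replicates 2 and 3. The biological coefficient of variation was 0.477, 0.200 with the block and 0.0761 in replicates 2 and 3. HEI values of Mesp1, Gsc, Sp5, Lhx1 and Mesp2 rest on 0 to 8 counts, which limits any comparison between HEI fractions.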

Other observations

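Of 15 tested T-box, SP and related genes, relatives of the 10 factors, 7 were lower in HEI than in FLK1+ cells, against 20.3% of all genes, and 1 was higher by the edgeR test (11 lower and 1 higher with the replicate block), with a median log2 difference of -1.48. Of the 11 with enough counts in HEI libraries alone, 3 were lower and 1 higher. The presomitic factor Msgn1 averaged 0.0317, 0.0321 and 0.0202 CPM in ENG+FDG+, ENG-FDG+ and ENG+FDG- cells, against 10.9 in LacZ+ and 13.8 in LacZ- cells. Sp8, a relative of Sp5, averaged 0.0548, 0 and 0.0582 CPM in the same HEI groups, against 3.77 in LacZ+ and 5.27 in LacZ- cells. Sp9 was the one higher, at 0.575, 1.03 and 0.771 CPM in those HEI groups, against 0.0888 in LacZ+ and 0.0234 in LacZ- cells, all low levels. Tbx5, a T-box factor of heart and forelimb, averaged 0.0548, 0 and 0 CPM in HEI, against 1.46 in LacZ+ and 1.20 in LacZ- cells. Sp1, Sp2, Sp3, Sp4, Mga, Tbx2 and Tbx20 did not pass.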
